A study of Mus musculus with 9 samples.

Results

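Interferon-stimulated genes are the genes that cells switch on after an interferon binds its receptor, and 35 of them, taken from the textbook core of the response, were followed in whole skin of mice that had lost Supt6 in the epidermis. All 35 had a row among the 17943 genes of the deposited table, and all 35 were among the 16426 genes tested. Supt6 encodes SPT6, a factor that travels with RNA polymerase II during transcript elongation. The 4 Supt6-KO mice were K14-CreERT; Supt6 fl/fl animals that received tamoxifen at 50 mg/kg by daily intraperitoneal injection for 5 days in the first telogen. The 5 control mice, called wild-type in the labels, were Supt6 fl/fl animals by the study's methods, which name no Cre for them, and received corn oil, so both the Cre and the tamoxifen differed along with the deletion, and their effects cannot be told apart. The floxed segment spans exons 12 to 19, and the keratin 14 promoter drives the inducible Cre in basal keratinocytes, whose suprabasal progeny inherit the deletion, while cells of other lineages are not targeted. Skin was taken 10 days after the last injection. Its site is given as ear in the sample labels and as dorsal skin in the study's methods, and strain and age were not given for these animals.

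An interferon of type I acts through the receptor chains IFNAR1 and IFNAR2, the kinases JAK1 and TYK2 and a complex that includes STAT2 and IRF9, which binds an interferon-stimulated response element (ISRE) in its target promoters. Interferon gamma acts through IFNGR1 and IFNGR2, and its target promoters carry a gamma-activated site (GAS). The products sense foreign nucleic acid, degrade RNA, block translation or trap viral particles, and some feed back on the pathway. In skin, keratinocytes, resident dendritic cells and infiltrating leukocytes can all express these genes.

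The response element was looked for in the members' promoters, because it is the sequence feature that most directly joins them. RefSeq windows (GRCm38.p6, 250 bases before to 50 after a start site) were at hand for 25 of the 35 genes, in 30 windows, while Dhx58, Ifi27, Mx1, Mx2, Oas2, Parp14, Parp9, Rtp4, Usp18 and Zbp1 had none. The ISRE core GAAANNGAA, searched on both strands with overlapping matches counted, was in 16 of the 30 windows (53.3%), against 8.56% of all 32851 windows of the same length. By gene, 15 of 25 members (60%) held it, against 9.76% of all 27025 genes with a window. The GAS letters TTCNNNGAA were in 7 of the 30 windows (23.3%), against 8.3% of all windows. The stretches below, of 80 bases each, show the element in members that ended on different sides of the comparison, with each match in capitals. They read 5′ to 3′ on the gene's strand, so a match on the other strand appears as TTCNNTTTC.
Oas1a, chr5:120907481-120907560, minus strand: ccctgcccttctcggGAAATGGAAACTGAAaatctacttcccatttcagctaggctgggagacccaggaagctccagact
Gbp2, chr3:142620590-142620669, plus strand: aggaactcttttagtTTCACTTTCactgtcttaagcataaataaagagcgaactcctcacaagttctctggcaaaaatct
Rsad2, chr12:26456507-26456586, minus strand: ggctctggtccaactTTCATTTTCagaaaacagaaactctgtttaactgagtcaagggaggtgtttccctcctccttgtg
Ifit1, chr19:34640765-34640844, plus strand: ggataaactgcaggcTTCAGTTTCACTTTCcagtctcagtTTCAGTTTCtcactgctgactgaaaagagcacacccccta
Isg15, chr4:156200832-156200911, minus strand: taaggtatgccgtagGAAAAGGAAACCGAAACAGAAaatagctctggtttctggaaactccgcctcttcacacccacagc
Ifit3, chr19:34583359-34583438, plus strand: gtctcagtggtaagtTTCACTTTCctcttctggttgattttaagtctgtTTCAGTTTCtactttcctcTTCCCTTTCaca
Ddx58, chr4:40239776-40239855, minus strand: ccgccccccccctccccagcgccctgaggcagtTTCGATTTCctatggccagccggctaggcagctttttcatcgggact
Isg15, Ifit1 and Ifit3 each held 3 matches in their windows and Oas1a held 2, some of them overlapping. The first match of Ddx58 began at base 4 after the start site, whereas those of the other genes printed here lay before it. Among members with a window, the core was in 7 of the 10 that were called higher below and in 8 of the 15 that were not. A match describes letters only, and binding was not measured.

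Depth was even, with 29627341 to 30491197 estimated counts in the control mice and 30597189 to 30967107 in the Supt6-KO group. The Supt6 gene had 2786, 2068, 2297, 3370 and 3798 estimated counts in the control mice and 684, 503, 478 and 791 in the Supt6-KO mice. All Supt6-KO mice were below all controls, at 33.7% of the control level (log2 fold change -1.57 ± 0.18 SE, edgeR adjusted p = 1.3e-05). The log2 fold change was -2.26 with library totals and -0.81 with an offset for gene length, which is under 2-fold. An exact two-sided permutation test on this single gene gave p = 0.0159, the smallest value that 5 against 4 mice allow. The mice nonetheless differed in much more than Supt6. The first principal component, which parted the groups, carried 83.3% of the variance, and Supt6-KO mouse 4 lay apart from the other 8 mice on the second (7.78% of the variance).

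Levels are given as CPM (counts scaled to the library size) after scaling by trimmed mean of M-values (TMM), and a gene was called when its adjusted p passed 0.05 with at least a 2-fold change. The libraries differed strongly in composition, and the scaling changed some of the directions and calls below. The TMM factors ran from 1.2 to 1.31 in the controls and were 0.781, 0.674, 0.706 and 0.91 in the Supt6-KO mice. Under TMM the median of all genes moved by -0.07 (log2), and under plain library totals by -0.76.

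Interferon-stimulated genes had fold changes of both signs in Supt6-KO skin, and under TMM more of them were called higher than lower. Of the 35, 13 were called higher (37.1%), namely Mx1, Zbp1, Oas1a, Gbp2, Rsad2, Rtp4, Ifi44, Bst2, Oasl1, Ifit1, Ifi35, Gbp3 and Irf1, and 1 was called lower (2.86%), Ddx58. Across all genes tested, 20.9% were called higher and 24.9% lower. By adjusted p alone, 17 members were higher (48.6%, against 34.1% of all genes) and 3 lower (8.57%, against 36.8%), the lower ones being Ddx58, Eif2ak2 and Stat2. The median log2 fold change of the members was 0.73, with a range from -1.63 to 2.72, and 27 of them lay above 0. With library totals in place of TMM the split changed to 4 higher (11.4%, against 8.95% of all genes) and 5 lower (14.3%, against 41.4%), and the median fell to 0.04. The 4 that stayed higher were Mx1, Zbp1, Oas1a and Gbp2, and the 5 lower ones were Ddx58, Stat2, Eif2ak2, Parp14 and Ifi27.

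**Figure D1:**
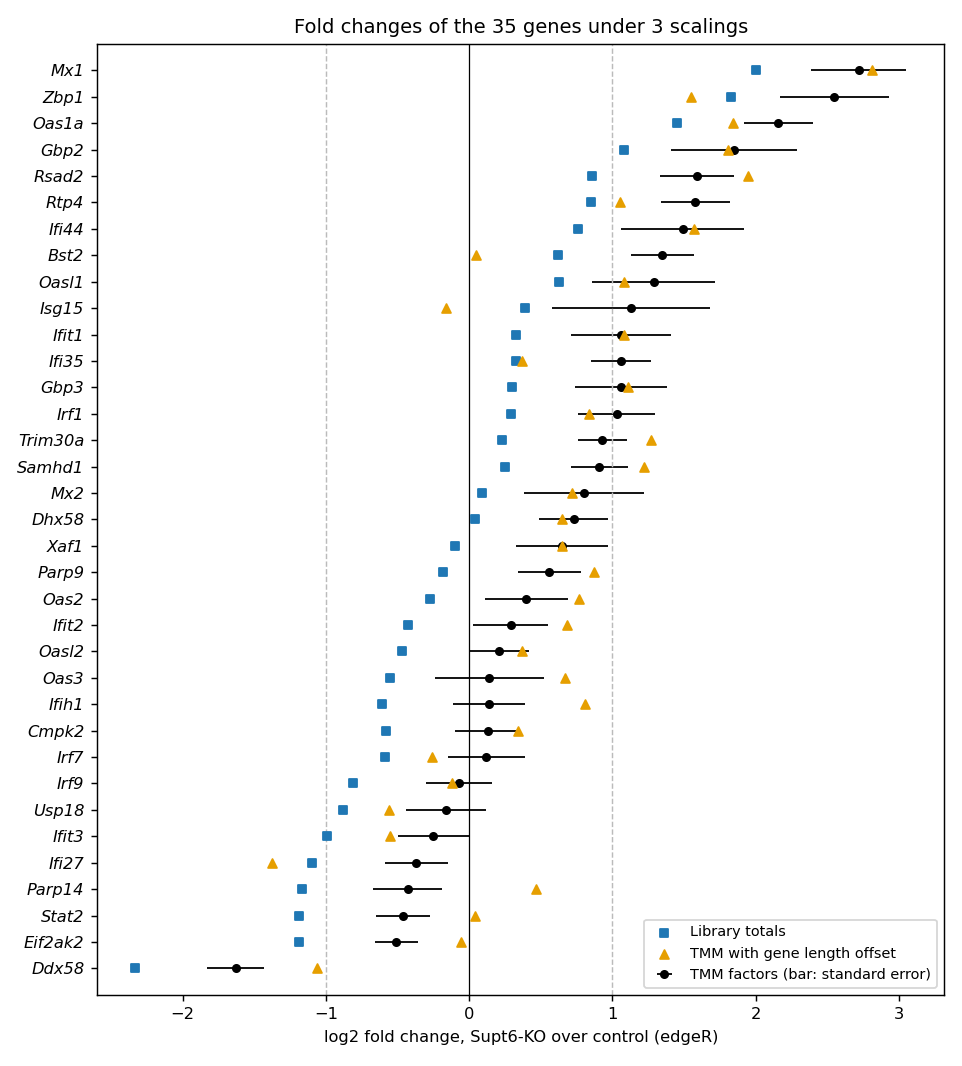
Log2 fold change of Supt6-KO over control skin (x axis) for each of the 35 genes (y axis), from edgeR with TMM factors (black, bar for the standard error), library totals (blue) and TMM with a gene length offset (yellow), with dashed lines at a 2-fold change. Mx1, Zbp1, Oas1a and Gbp2 lie beyond the right dashed line under all 3 scalings, and Ddx58 lies beyond the left one.

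The groups overlapped in most members. After TMM scaling, every Supt6-KO mouse was above every control for 8 of the 35 (22.9%, against 28.9% of all genes), which were Mx1, Zbp1, Oas1a, Rsad2, Rtp4, Bst2, Trim30a and Samhd1. No Supt6-KO mouse reached the lowest control for Ddx58 and Stat2 (5.71%, against 31.8%). The spread among the Supt6-KO mice was wide. The summed CPM of the 35 genes was 263, 323, 286, 294 and 273 in the control mice and 386, 398, 474 and 259 in the Supt6-KO mice. Supt6-KO mouse 3 had the highest level of its group in 22 members and mouse 4 the lowest in 24, and mouse 4 lay below all controls in the sum. Without mouse 4, 14 members were called higher and 20 passed by adjusted p, Isg15 joining the first count and Isg15, Ifih1 and Xaf1 the second, while Stat2 no longer passed. Without mouse 3, 10 were called higher and 13 passed by adjusted p.

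Per transcript length, the members began from very different levels in control skin. TPM, which divides counts by transcript length, was highest for Ifi27, at 139 ± 9.95 (SD, n = 5), followed by Irf9 at 25.3 ± 1.79 and Ifi35 at 21.5 ± 1.17. Bst2 at 18.4 ± 2.37, Isg15 at 18.3 ± 14.8 and Samhd1 at 14.1 ± 3.78 came next, and these last neighbours in the order lay within their spread. At the other end, Oasl1 had a TPM of 0.19 ± 0.0663, Ifi44 0.206 ± 0.105, Mx1 0.23 ± 0.0636 and Oas3 0.23 ± 0.0831, also within their spread. Thus the member with the largest fold change, Mx1, was among the least abundant in control skin.

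Of the 4 cytosolic sensors, Zbp1 was called higher and Ddx58 lower. Ddx58 encodes RIG-I, which detects RNA with a 5′ triphosphate, and it had 263, 277, 276, 322 and 456 estimated counts in the control mice and 64, 47, 72 and 77 in the Supt6-KO mice. All Supt6-KO mice were lower, with no overlap (8.52 ± 1.83 CPM to 2.75 ± 0.427, log2 fold change -1.63 ± 0.20 SE, edgeR adjusted p = 2.4e-05). Zbp1, which binds Z-form nucleic acid and can trigger necroptosis, had 20, 9, 22, 31 and 12 estimated counts in the control mice and 84, 57, 92 and 43 in the Supt6-KO mice. These rose without overlap (0.507 ± 0.240 CPM to 3.00 ± 1.14, log2 fold change 2.55 ± 0.38 SE, edgeR adjusted p = 0.00011). Ifih1, coding for the long-RNA sensor MDA5, had 378, 441, 475, 433 and 413 estimated counts in the control mice and 323, 338, 332 and 162 in the Supt6-KO mice. In CPM, Supt6-KO mice 1 to 3 were above all controls (13.5, 16.2 and 15.2, against at most 13.1) and mouse 4 was below them (5.82), so that the mean moved little (log2 fold change 0.14 ± 0.25 SE, edgeR adjusted p = 0.64). Dhx58 encodes LGP2, a regulator of the other RNA sensors. It passed by adjusted p but not by size (log2 fold change 0.73 ± 0.24 SE, edgeR adjusted p = 0.017), and without mouse 3 it did not pass (0.62, adjusted p = 0.057). Under library totals Dhx58 did not pass either (0.04, edgeR adjusted p = 0.91).

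The oligoadenylate synthetases make the second messenger that activates RNase L, and PKR, the product of Eif2ak2, shuts down translation on sensing double-stranded RNA. Of these 6 genes, 2 were called higher (20.9% of all genes), and with library totals 1 was higher and 1 lower (8.95% and 41.4% of all genes). Oas1a had 38, 60, 40, 47 and 42 estimated counts in the control mice and 136, 100, 165 and 109 in the Supt6-KO mice. It rose without overlap (1.22 ± 0.254 CPM to 5.49 ± 1.55, log2 fold change 2.16 ± 0.24 SE, edgeR adjusted p = 1e-05). Its estimated counts were not whole numbers in all 9 mice, so reads were shared with near-identical copies, and its neighbour Oas1g, outside the 35, also rose (log2 fold change 2.55 ± 0.44 SE, edgeR adjusted p = 0.0003). Oasl1, a family member without synthetase activity, had 5, 11, 6, 10 and 8 estimated counts in the control mice and 21, 4, 10 and 16 in the Supt6-KO mice. It was called higher (log2 fold change 1.29 ± 0.43 SE, edgeR adjusted p = 0.018), although Supt6-KO mouse 2 lay among the controls and without mouse 1 the gene no longer passed (0.94, adjusted p = 0.078). Oas3 had 24, 14, 19, 32 and 27 estimated counts in the control mice and 20, 5, 22 and 18 in the Supt6-KO mice, and these overlapped (log2 fold change 0.14 ± 0.38 SE, edgeR adjusted p = 0.76). Neither Oas2 (0.40 ± 0.29 SE, adjusted p = 0.24) nor Oasl2 (0.21 ± 0.21 SE, adjusted p = 0.4) passed in edgeR. Eif2ak2 fell by 0.51 on the log2 scale (SE 0.15, edgeR adjusted p = 0.01), from 15.1 ± 1.24 CPM to 10.6 ± 2.09, with overlap. The OAS genes of this group lie on chromosome 5, with Oas1a, Oas2 and Oas3 within chr5:120730333-120907544 (GRCm38.p6), and in this stretch Oas1a alone of the 3 was called.

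The IFIT proteins bind viral RNA and block its translation, and the 3 members lie in 1 cluster on chromosome 19, from 34550550 to 34650009. Ifit1 had 26, 43, 60, 59 and 52 estimated counts in the control mice and 67, 50, 95 and 36 in the Supt6-KO mice. It was called higher (1.29 ± 0.387 CPM to 2.71 ± 1.26, log2 fold change 1.06 ± 0.35 SE, edgeR adjusted p = 0.016), with Supt6-KO mouse 4 among the controls, and without mouse 3 it no longer passed (0.74, adjusted p = 0.076). Ifit2 (0.29 ± 0.26 SE, adjusted p = 0.33) and Ifit3 (-0.25 ± 0.25 SE, adjusted p = 0.37) did not pass in edgeR, and whether they differed from Ifit1 was not tested. The counts of Ifit3 were not whole in all 9 mice, and its close copy Ifit3b, outside the 35, fell by 1.01 on the log2 scale (SE 0.27, edgeR adjusted p = 0.0055). Ifit1 and Ifit3 carry the same number of ISRE cores in the windows printed above.

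Isg15 encodes a ubiquitin-like modifier, and Usp18 the protease that removes it and also restrains receptor signalling. Isg15 had 89, 506, 135, 118 and 121 estimated counts in the control mice and 348, 280, 319 and 93 in the Supt6-KO mice. Control mouse 2 was as high as the first 3 Supt6-KO mice, and Supt6-KO mouse 4 was as low as the other controls. The gene therefore did not pass (log2 fold change 1.13 ± 0.55 SE, edgeR adjusted p = 0.088), although it did without control mouse 2 (1.89, adjusted p = 0.0019) or without Supt6-KO mouse 4 (1.44, adjusted p = 0.021). Usp18 stood at 2.03 ± 0.451 CPM in the controls and 1.82 ± 0.603 in the knockouts (log2 fold change -0.16 ± 0.28 SE, edgeR adjusted p = 0.61).

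Of the 4 interferon-induced GTPases, 3 were called higher (20.9% of all genes), and 2 with library totals (8.95% of all genes). Mx1, which traps viral nucleoproteins and is defective in many laboratory strains, had 12, 17, 9, 18 and 11 estimated counts in the control mice and 52, 49, 81 and 39 in the Supt6-KO mice. This was the largest fold change of the 35, without overlap (0.360 ± 0.109 CPM to 2.41 ± 0.958, log2 fold change 2.72 ± 0.33 SE, edgeR adjusted p = 2.1e-05). Its close neighbour on chromosome 16, Mx2, did not pass (0.80 ± 0.42 SE, edgeR adjusted p = 0.11), on 7 to 24 estimated counts per mouse. Gbp2, a guanylate-binding protein that attacks pathogen vacuoles, had 234, 233, 305, 381 and 218 estimated counts in the control mice and 481, 624, 1104 and 178 in the Supt6-KO mice. Supt6-KO mouse 4 lay among the controls and the other 3 far above them (log2 fold change 1.85 ± 0.44 SE, edgeR adjusted p = 0.0028). Gbp3, of the same family, had 112, 112, 104, 142 and 150 estimated counts in the control mice and 142, 142, 263 and 82 in the Supt6-KO mice. The pattern over mice resembled that of Gbp2, with a smaller fold change (1.06 ± 0.32 SE, edgeR adjusted p = 0.011), and without mouse 3 Gbp3 no longer passed (0.65, adjusted p = 0.055).

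Other effectors held 5 of the 13 genes called higher (5 of 10, against 20.9% of all genes). With library totals 0 of the 10 were higher and 1, Ifi27, lower (8.95% and 41.4% of all genes). Rsad2 encodes viperin, which makes a chain-terminating nucleotide, and it had 27, 33, 21, 38 and 36 estimated counts in the control mice and 51, 63, 71 and 47 in the Supt6-KO mice. It rose without overlap (0.830 ± 0.177 CPM to 2.52 ± 0.736, log2 fold change 1.59 ± 0.26 SE, edgeR adjusted p = 0.0002). Cmpk2, the nucleotide kinase next to Rsad2 on chromosome 12, had 75, 85, 81, 60 and 98 estimated counts in the control mice and 45, 45, 75 and 54 in the Supt6-KO mice. It did not pass (0.13 ± 0.23 SE, edgeR adjusted p = 0.62), and the difference between these neighbours was not tested. Bst2, or tetherin, holds budding virions at the cell surface, and it had 197, 234, 185, 212 and 217 estimated counts in the control mice and 319, 295, 465 and 243 in the Supt6-KO mice. It rose without overlap (5.61 ± 0.503 CPM to 14.4 ± 5.18, log2 fold change 1.35 ± 0.22 SE, edgeR adjusted p = 0.0002), but the call was lost with the length offset (0.05, adjusted p = 0.83). Rtp4, a receptor chaperone that limits flavivirus replication, had 57, 88, 69, 70 and 69 estimated counts in the control mice and 142, 109, 175 and 98 in the Supt6-KO mice. It too rose without overlap (1.90 ± 0.324 CPM to 5.67 ± 1.86, log2 fold change 1.58 ± 0.24 SE, edgeR adjusted p = 0.00012).

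Ifi44 and Ifi35 were called with overlap. Ifi44 had 5, 19, 8, 18 and 10 estimated counts in the control mice and 25, 25, 22 and 12 in the knockouts (log2 fold change 1.49 ± 0.43 SE, edgeR adjusted p = 0.0088). Ifi35, whose product is a regulator of innate signalling, had 533, 616, 510, 514 and 465 estimated counts in the control mice and 829, 736, 695 and 459 in the Supt6-KO mice (1.06 ± 0.21 SE, adjusted p = 0.00077 in edgeR), and without Supt6-KO mouse 1 or 2 or control mouse 5 it fell just short of 2-fold, and with the length offset it did not pass. In both, Supt6-KO mouse 4 lay among the controls after scaling. Samhd1, which degrades deoxynucleotides, and Trim30a, a ubiquitin ligase family member, did not reach 2-fold. After TMM scaling every Supt6-KO mouse was above every control for both. Samhd1 went from 29.5 ± 4.72 CPM to 55.3 ± 17 (log2 fold change 0.91 ± 0.20 SE, edgeR adjusted p = 0.0015). Trim30a went from 2.62 ± 0.378 CPM to 4.99 ± 0.575 (0.93 ± 0.17 SE, adjusted p = 0.00049 in edgeR). With library totals neither Samhd1 (0.25, edgeR adjusted p = 0.41) nor Trim30a (0.23, edgeR adjusted p = 0.33) passed. Xaf1, a promoter of apoptosis, did not pass (0.65 ± 0.32 SE, edgeR adjusted p = 0.088). Ifi27, the most abundant member in control skin, stood at 61.1 ± 11.1 CPM in the controls and 47.5 ± 14.4 in the Supt6-KO mice and did not pass either (-0.37 ± 0.22 SE, edgeR adjusted p = 0.15).

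The PARP genes lie near each other on chromosome 16, and these genes, whose products attach or bind ADP-ribose, had fold changes of opposite sign under TMM, both negative with library totals (-0.18 and -1.17) and both positive with the length offset (0.87 and 0.47). Parp9 passed by adjusted p (log2 fold change 0.56 ± 0.22 SE, edgeR adjusted p = 0.041), though not without control mouse 1, 4 or 5 or Supt6-KO mouse 1, 2 or 3 (0.41 to 0.57), and Parp14 did not pass (-0.43 ± 0.24 SE, edgeR adjusted p = 0.13).

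Of the 4 transcription factors that carry the signal, Irf1 was called higher and Irf7, Irf9 and Stat2 were not. Irf1, an activator that responds to interferon gamma, had 311, 444, 449, 434 and 358 estimated counts in the control mice and 475, 473, 750 and 310 in the Supt6-KO mice. Mouse 4 lay among the controls (10.8 ± 1.89 CPM to 22.0 ± 9.57, log2 fold change 1.03 ± 0.27 SE, edgeR adjusted p = 0.0048), and without Supt6-KO mouse 3 or control mouse 1 or 5 the gene was under 2-fold (0.73, 0.95 and 0.98). Under library totals Irf1 did not pass (0.29, edgeR adjusted p = 0.28). Irf7, the amplifier of type I interferon production, had 310, 369, 215, 363 and 299 estimated counts in the control mice and 336, 175, 197 and 139 in the Supt6-KO mice. It overlapped (log2 fold change 0.12 ± 0.27 SE, edgeR adjusted p = 0.69). Irf9 had 1219, 1493, 1264, 1284 and 1059 estimated counts in the control mice and 858, 832, 820 and 452 in the Supt6-KO mice, and after TMM scaling it moved least of the 35 (-0.07 ± 0.23 SE, edgeR adjusted p = 0.79). Under library totals Irf9 passed as lower (-0.81, edgeR adjusted p = 0.0026). Stat2 fell by 0.46 on the log2 scale (SE 0.19, edgeR adjusted p = 0.045), from 14.9 ± 1.44 CPM to 10.9 ± 2.83, with no Supt6-KO mouse reaching the lowest control. Leaving out any mouse other than Supt6-KO mouse 1 or 3 took Stat2 out of the genes that passed (-0.29 to -0.50).

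Fold changes in this comparison also followed gene length, which was read from the ratio of counts to TPM. Over the 13594 genes above a mean of 1 CPM with a length, the log2 fold change decreased by 1.67 for each 10-fold increase in length. Genes shorter than the median gene had a median of 0.42 (2388 higher and 1229 lower of 7634), and longer ones -0.56 (669 higher and 2739 lower of 7634). The 19 shorter members had a median of 1.06 with 10 called higher, and the 16 longer ones 0.25 with 3 higher and 1 lower. Ddx58, the member called lower, was 1.84 times as long as the median gene, and the 13 called higher had a median relative length of 0.739.

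A fit with a length offset for each mouse, which brought that slope to 0.167, gave 12 members higher (34.3%, against 16% of all genes) and 2 lower (5.71%, against 22.5%), with a member median of 0.68. Bst2, Ifi35 (0.37, adjusted p = 0.078 in edgeR) and Irf1 (0.84, adjusted p = 0.016) left the calls, and Samhd1 (1.22) and Trim30a (1.27) entered them. Isg15, the shortest of the 35, went to -0.16, and Ifi27 became a lower call (-1.38, edgeR adjusted p = 1.3e-05). Ddx58 remained lower at -1.06 (edgeR adjusted p = 0.00022). Eif2ak2 (-0.06, adjusted p = 0.73 in edgeR) and Stat2 (0.04, adjusted p = 0.86) no longer passed, while Ifih1 (0.81, adjusted p = 0.023), Oas2 (0.77, adjusted p = 0.031) and Ifit2 (0.68, adjusted p = 0.036) came to pass. Zbp1 was still called higher, at 1.55. What part length has in these values was not tested beyond this fit.

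**Figure D2:**
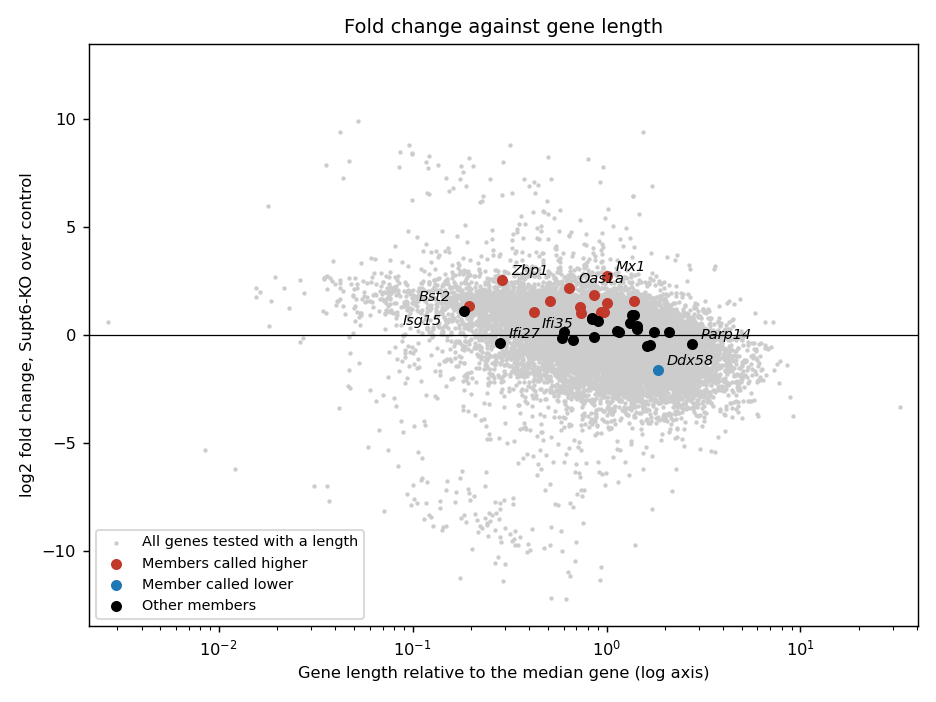
Log2 fold change of Supt6-KO over control skin (y axis) against gene length relative to the median gene (x axis, log scale), for all genes tested with a length (grey) and the 35 members (red called higher, blue called lower, black others). Among members, 10 of the 13 red points lie left of the median length and Ddx58 lies right of it at 1.84.

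Upstream of these genes, little could be seen of the interferons themselves. Of 20 ligand genes, 2 had a row. Ifng had 0 estimated counts in all 5 control mice and 5, 1, 5 and 4 in the Supt6-KO mice. It entered the test through the Supt6-KO counts alone, so neither a fold nor a p is given. Ifnk had 1, 1, 0, 0 and 0 estimated counts in the control mice and none in the Supt6-KO mice, under the filter, and Ifnb1 was among those without a row. Under TMM neither type I receptor chain passed, Ifnar1 at -0.03 ± 0.10 (SE, edgeR adjusted p = 0.84) and Ifnar2 at -0.15 ± 0.15 (SE, edgeR adjusted p = 0.4). Both passed as lower under library totals (-0.71 and -0.83), and with the length offset Ifnar1 passed as higher (0.82) and Ifnar2 as lower (-0.80). For interferon gamma, Ifngr2 rose (1.05 ± 0.23 SE, edgeR adjusted p = 0.0016, but 0.32 and adjusted p = 0.15 under library totals) and Ifngr1 fell by 0.71 on the log2 scale (SE 0.15, edgeR adjusted p = 0.0012).

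Among 10 further signalling genes, kinases, IRFs and SOCS genes among them, none was called higher and 1 lower (20.9% and 24.9% of all genes), Irf2, a repressor of ISRE-driven genes (fell by 1.80 on the log2 scale, SE 0.19, edgeR adjusted p = 8.1e-06). By edgeR's adjusted p alone, 4 of these 10 were higher and 4 lower, against 34.1% and 36.8% of all genes. Jak1 was among the lower ones (it fell by 0.81 on the log2 scale, SE 0.13, edgeR adjusted p = 0.00023, but -0.19 and adjusted p = 0.075 with the length offset). Among 13 sensors and adaptors that lead to interferon production, 1 was called higher and 3 lower (20.9% and 24.9% of all genes). The higher one was Tlr7, an endosomal RNA receptor (1.3 ± 0.32 SE, edgeR adjusted p = 0.0034, but 0.57 and adjusted p = 0.14 under library totals). The lower ones were Mavs, the adaptor on which RIG-I acts (-1.09 ± 0.13 SE, edgeR adjusted p = 2.4e-05), Traf3, which joins it to the kinases (-1.73 ± 0.26 SE, edgeR adjusted p = 9.9e-05), and Tlr9, an endosomal DNA receptor. Tlr9 had 12, 5, 11, 18 and 26 estimated counts in the control mice and 5, 0, 2 and 2 in the Supt6-KO mice. It reached the filter through the controls alone, so its call supports nothing. With the length offset Mavs (-0.98) and Traf3 (-0.87) were under 2-fold. The list then had 2 genes higher and 1, Tlr9, lower (16% and 22.5% of all genes). With library totals it had 0 higher and 5 lower, Tlr9 among them (8.95% and 41.4% of all genes).

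Interferon-stimulated genes beyond the 35 were split as well. Of 50 tested, 16 were called higher and 6 lower (20.9% and 24.9% of all genes), with a median of 0.48. With library totals 7 were higher and 17 lower (8.95% and 41.4% of all genes), with a median of -0.24. Ifitm1, a membrane protein that blocks viral fusion, had 65, 84, 36, 65 and 96 estimated counts in the control mice and 321, 394, 570 and 504 in the knockouts (log2 fold change 3.37 ± 0.27 SE, edgeR adjusted p = 1.6e-06). It did not share the low value of mouse 4, and with the length offset its fold change was 1.77 on the log2 scale. Ifi209, of the family that binds DNA, rose by 3.01 ± 0.24 (SE, edgeR adjusted p = 1.5e-06). In the other direction, Lgals3bp fell by 2.29 on the log2 scale (SE 0.21, edgeR adjusted p = 3.3e-06), and Pml, which builds the nuclear bodies, fell by 2.09 (SE 0.25, edgeR adjusted p = 1.8e-05). Znfx1, an RNA helicase, fell by 1.79 (SE 0.20, edgeR adjusted p = 1.2e-05). With the length offset Pml was at -1.47 and Znfx1 at -1.16.

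Genes typical of interferon gamma held 10 higher and 3 lower of 23 (20.9% and 24.9% of all genes), with a median of 0.83. With library totals 4 were higher and 6 lower (8.95% and 41.4% of all genes), with a median of 0.08. With the length offset 7 were higher and 2 lower (16% and 22.5% of all genes). Cxcl9, a T cell attractant, had 38, 56, 75, 185 and 48 estimated counts in the control mice and 473, 636, 1024 and 56 in the Supt6-KO mice. Mouse 4 was again among the controls (log2 fold change 3.51 ± 0.72 SE, edgeR adjusted p = 0.001, and 3.89 without mouse 4). Cxcl10, its relative, had 29, 43, 44, 87 and 17 estimated counts in the control mice and 293, 228, 622 and 66 in the Supt6-KO mice (3.50 ± 0.62 SE, edgeR adjusted p = 0.00038, and 2.53 with the length offset). The 3 lower genes were Ciita, the master activator of MHC class II (-2.44 ± 0.37 SE, edgeR adjusted p = 0.00011, and -1.81 with the length offset), Tap2, a peptide transporter of MHC class I loading (-1.52 ± 0.18 SE, edgeR adjusted p = 2.1e-05), and Nlrc5, the activator of MHC class I genes (-1.20 ± 0.28 SE, edgeR adjusted p = 0.0027, but -0.35 and adjusted p = 0.3 with the length offset). Over the 103 pathway genes tested outside the 35, 29 were called higher and 13 lower (20.9% and 24.9% of all genes), with a median of 0.45. The 29 include Ifng, which entered the test through the Supt6-KO mice alone. The 13 include Tlr9, which entered it through the controls alone. Library totals moved the median of all genes from -0.07 to -0.76 and the share called to 8.95% higher and 41.4% lower. Under them 12 pathway genes were higher, Ifng again included, and 32 lower, Tlr9 again included, with a median of -0.25.

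Markers of skin cell types moved in the same comparison, and in whole skin a change in the number of cells of a type and a change in RNA per cell cannot be told apart. Keratinocyte RNA was abundant throughout, with Krt10 at 14343 ± 730 CPM in the controls and 16352 ± 5762 in the knockouts (log2 fold change 0.19 ± 0.28 SE, edgeR adjusted p = 0.56). Over the 5 keratinocyte genes, 1 was called higher and 1 lower (20.9% and 24.9% of all genes). Krt1 rose by 3.65 on the log2 scale (SE 0.24, edgeR adjusted p = 5.3e-07) and Krt15 fell by 2.65 (SE 0.23, edgeR adjusted p = 2.2e-06). Krt5 was lower by adjusted p but not by size (-0.86 ± 0.23 SE, edgeR adjusted p = 0.0048), and Krt14 did not pass (0.66 ± 0.30 SE, edgeR adjusted p = 0.063). Of 5 neutrophil genes tested, 4 were called higher and 1, Mpo, lower (20.9% and 24.9% of all genes). With library totals these became 3 and 1 (8.95% and 41.4% of all genes), Ly6g and Mpo again included. The 4 include Ly6g, which reached the filter through the Supt6-KO mice alone. Mpo reached it through the controls alone (4, 10, 10, 26 and 16 estimated counts, against 1, 0, 0 and 0 in the Supt6-KO mice). The calls of Ly6g and Mpo therefore support nothing. The summed CPM of the 5 neutrophil genes was 9.36, 7.28, 6.64, 7.87 and 4.18 in the control mice and 36.9, 33, 76.7 and 24 in the Supt6-KO mice. Mouse 3 was highest and mouse 4 lowest of its group in this sum, of which Retnlg made up 40.5%. Single genes did not all keep that order. Csf3r was lowest in Supt6-KO mouse 1 (5.64, 6.43, 12.1 and 9.74 CPM in mice 1 to 4), and Cxcr2 was highest there (19.4, 13.2, 10.6 and 10.2 CPM). The most abundant in controls was Cxcr2, at 6.00 ± 2 CPM against 13.3 ± 4.24 in the Supt6-KO mice (1.15 ± 0.28 SE, edgeR adjusted p = 0.0034, but 0.46 and adjusted p = 0.16 under library totals). Over all 9 mice it was Retnlg (6.59 ± 0.80 SE, edgeR adjusted p = 2.2e-05, and 4.87 with the length offset), whose level of 53.4 CPM in Supt6-KO mouse 3 compared with 11.7, 13.4 and 4.06 in mice 1, 2 and 4. The defining marker Ly6g was at 0 in 4 of the controls and in Supt6-KO mouse 2, with 4, 15 and 1 estimated counts in the other Supt6-KO mice.

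Macrophage and monocyte genes were called higher in 5 of 7 and lower in 1, Csf1r (20.9% and 24.9% of all genes). Library totals left 3 higher and 1 lower (8.95% and 41.4% of all genes), as did the length offset (16% and 22.5% of all genes). The summed CPM of the 7 genes was 181, 170, 135, 167 and 265 in the control mice and 739, 785, 1050 and 569 in the Supt6-KO mice, most of it Lyz2 (2.79 ± 0.23 SE, edgeR adjusted p = 1.9e-06, and 1.77 with the length offset). Langerhans and dendritic cell genes went the other way, with 4 of 6 lower and 1 higher (24.9% and 20.9% of all genes). With library totals 5 of these 6 genes were lower and 0 higher (41.4% and 8.95% of all genes). Their summed CPM was 738, 765, 727, 711 and 616 in the control mice and 218, 128, 103 and 58.8 in the Supt6-KO mice, led by Cd74 (-3.14 ± 0.32 SE, edgeR adjusted p = 5.9e-06). Of 5 T and NK cell genes tested, 1 was higher and 1 lower (20.9% and 24.9% of all genes). The most abundant, Cd3e, fell by 4.13 on the log2 scale (SE 0.33, edgeR adjusted p = 1.5e-06), from 256 to 316 estimated counts per control mouse to 6 to 21 per Supt6-KO mouse. The higher one was Cd8a (1.88 ± 0.42 SE, edgeR adjusted p = 0.0019). Cd3d was lower by adjusted p but not by size (-0.75 ± 0.29 SE, edgeR adjusted p = 0.034), and Cd4 (0.10) and Klrb1c (-0.02) did not pass.

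**Figure D3:**
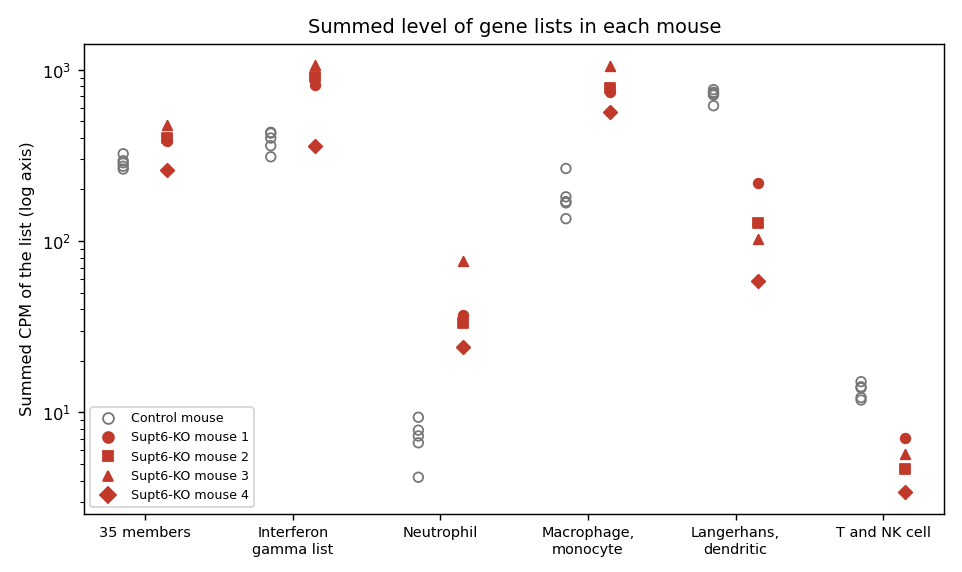
Summed CPM (y axis, log scale) of the 35 members and of 5 other gene lists (x axis) in each mouse, with open circles for control mice and red symbols for Supt6-KO mice. Mouse 3 (triangles) is the highest and mouse 4 (diamonds) the lowest Supt6-KO mouse in the sums for the members, the interferon gamma list, neutrophils and macrophages. Retnlg made up 40.5% of the neutrophil sum and Lyz2 74.6% of the macrophage sum. Not every gene kept this order, as Cd68 was highest in mouse 4 (33.5 CPM).

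Plasmacytoid dendritic cells, the main producers of type I interferon, gave 2 genes higher and 2 lower of 5 (20.9% and 24.9% of all genes). One of the higher genes, Klk1, had at most 1 estimated count per control mouse and reached the filter through the Supt6-KO mice, so its call supports nothing. The other was Ccr9, with every Supt6-KO mouse above every control (1.42 ± 0.29 SE, edgeR adjusted p = 0.00096). Its log2 fold change was 0.68 under library totals and 1.90 with the length offset. Siglech, a marker of these cells, had 6 to 26 estimated counts per control mouse and 6 to 17 per Supt6-KO mouse (0.56 ± 0.48 SE, edgeR adjusted p = 0.32). The most abundant of that list was Tcf4, which other cells also express (-1.28 ± 0.19 SE, edgeR adjusted p = 0.0001, and -0.40 with the length offset). Of 4 pan-leukocyte genes 1 was higher and 1 lower (20.9% and 24.9% of all genes). The most abundant in controls, Laptm5, fell by 1.83 on the log2 scale (SE 0.24, edgeR adjusted p = 3.5e-05), and the most abundant over all 9 mice, Cd53, rose (1.49 ± 0.15 SE, edgeR adjusted p = 5.3e-06). Genes of the other compartments fell or did not pass. Of 5 fibroblast genes 2 were lower (most abundant, Col1a2), as were all 4 tested in each of the endothelial (Pecam1), adipocyte (Adipoq) and skeletal muscle (Acta1) lists (24.9% of all genes). With the length offset 3 of 5 fibroblast, 1 of 4 endothelial, 4 of 4 adipocyte and 3 of 4 muscle genes were called lower (22.5% of all genes). Pecam1 (-0.86), Kdr (-0.45) and Vwf (-0.18) were not. The part of these cell types in the interferon-stimulated genes was not tested.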

How the data were processed

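RNA was measured by mRNA sequencing of whole skin from 9 mice (5 control, 4 Supt6-KO). Reads had been aligned by the authors to mm10 with Bowtie2 2.3.4.3 and quantified with RSEM 1.3.1, which divides reads shared by similar genes. The submitters' processing notes also list HISAT and DESeq2 1.4.5. The annotation release and strand setting are not given in the sources used here. The deposited table holds expected counts per gene for each mouse (9% not whole) and TPM as computed by the authors for 6 mice (the 5 controls and Supt6-KO mouse 4). TPM served for levels in controls and relative lengths (15268 genes). Expected counts were rounded. Genes with at least 10 counts in sum were kept (16426 of 17943), scaled by TMM and tested with edgeR 4.0.16 (quasi-likelihood, R 4.3.3, both groups, no covariate). Values of p were two-sided and adjusted by Benjamini-Hochberg over all genes tested. CPM used TMM, ± is SD unless SE is named, and relative values used a pseudocount of 0.5 CPM.

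Symbols and positions came from RefSeq (GRCm38.p6), matched for 17911 rows (61 by synonym, 32 unmatched). The 35 members, the pathway and cell type lists and the genes named were chosen with earlier results of these data known. All 35 members are named, with counts in every mouse for those called at 2-fold and the 5 of smallest change. From other lists, the largest calls, a few fixed genes and the most abundant marker are named, and 1 gene is not reported here. Ifngr1, Jak1, Ifit3b, Mpo, Ly6g, Klk1, Csf1r, Siglech, Laptm5, Cxcr2, Kdr and Vwf were named after their values were seen. So were Csf3r, Cd68, Krt1, Krt5, Krt14, Krt15, Cd3d, Cd4, Cd8a, Klrb1c and Ccr9. Nothing says more of the replicates than that they are separate mice. The edgeR step was tested on simulated data and recovered 93% of genes with a true log2 change of 1.5 and 97% at 3, over 16333 genes. The simulation changed 200 genes with a mean of at least 1 CPM, as many up as down. It therefore could not test the scaling of libraries that differ strongly in composition, nor recovery of genes at lower levels. The alternatives were library totals, DESeq2 and upper-quartile factors, the DESeq2 1.42.0 test, other filters, the replicate number as block, a length offset and leaving out each mouse.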

Additional observations from a re-analysis of the deposited data

Results flagged for a closer look

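Within-group spread was examined for 74 groups of mice, and 6 values stood far from the rest of their group where chance would give about 3.7 (1 in 20). Isg15 was at 13.9 CPM in control mouse 2 (group median 3.19) and at 3.34 CPM in Supt6-KO mouse 4 (group median 14). Ifit2 was at 6.62 CPM (group median 4.2) and Ifit3 at 9.7 CPM (group median 7.31) in control mouse 5. Oasl2 was at 2.62 CPM in Supt6-KO mouse 4 (group median 2.1), where most other members were low. Mx2 was at 1.01 CPM in Supt6-KO mouse 3 (group median 0.515). The cause of these values was not tested.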

How the results depend on the processing

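Of 624 repeats of the members' fold changes under 18 alternatives, 541 kept their direction and their side of the threshold, 40 no longer passed, 19 came to pass and 24 turned sign. Library totals gave 4 members higher and 5 lower at 2-fold, 7 higher and 10 lower by adjusted p, 1470 genes higher and 6802 lower over all, 12 pathway genes higher and 32 lower, and a member median of 0.04. Signs turned there for Ifit2 (-0.43), Ifih1 (-0.61), Oas2 (-0.27), Oas3 (-0.55), Oasl2 (-0.47), Irf7 (-0.59), Xaf1 (-0.10), Parp9 (-0.18) and Cmpk2 (-0.58). With the length offset 2 members were lower, and signs turned for Isg15 (-0.16), Irf7 (-0.26), Stat2 (0.04) and Parp14 (0.47). Requiring 10 counts in every mouse left 8 members higher, since 4 of the 13 were then not tested and Irf1 fell short of 2-fold. Mx1, Zbp1, Oas1a and Gbp2 passed at 2-fold under every alternative that tested them, and Rsad2, Rtp4 and Ddx58 by adjusted p.

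Leaving out each mouse in turn gave 10 to 14 members higher and 1 to 1 lower, 13 to 20 higher and 2 to 4 lower by adjusted p, 3248 to 3476 genes higher and 3845 to 4204 lower, 23 to 33 pathway genes higher and 11 to 14 lower, a member median of 0.48 to 0.81 and a Supt6 log2 fold change of -1.66 to -1.47. Signs turned for Irf9 (-0.20 to 0.15, and 0.00 without control mouse 2), Usp18 (-0.29 to 0.05), Irf7 (-0.16 to 0.32), Ifih1 (-0.02 to 0.38), Oas3 (-0.11 to 0.39) and Cmpk2 (-0.11 to 0.23), none of which passed in the fit with all mice. The labels do not say whether mice of the same number share more than that number. Correlations between them were 0.0108, 0.246, 0.242 and 0.0629 (mean 0.141), against a mean of -0.03 over the 16 other pairs. The replicate block gave 10 members higher and 1 lower, and Supt6 at -1.46. With the length offset and the replicate block together, 2238 genes were higher and 8 pathway genes lower, and signs turned for Isg15 (-0.09), Irf7 (-0.31), Stat2 (0.01) and Parp14 (0.46). Causes were not tested. Depth is lowest for members such as Oasl1 (4 to 21 counts per mouse) and Mx2 (7 to 24).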
